A study of Mus musculus with 125 samples.

Results

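The lung-only endothelial regions are 1411 stretches of open chromatin that ATAC-seq found in lung endothelial nuclei of P6 mouse pups and in no endothelial library of the other organs at that age. They were chosen by peak calls. Overlapping peaks of the 14 P6 endothelial lists were merged into 196834 regions. A region was kept where both P6 lung endothelial lists had a peak in it, where none of the 12 P6 endothelial lists of brain, heart, kidney, liver and retina had one, and where none of the 3 P6 lung input lists overlapped it. The members are 0.717% of all merged regions and 2.62% of the 53932 regions with a peak in both P6 lung endothelial lists.

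The study profiled open chromatin of endothelial nuclei and of input, which means nuclei of the whole tissue, in mice at E12, P6 and 2 months of age. All endothelial and input groups used here came from mice given tamoxifen at 0.015 mg/kg, which switched on a GFP reporter in vessels. Dams of the E12 embryos, of which brain, heart and trunk were taken, received it during pregnancy, the P6 pups on postnatal days 1 and 3, and the adult mice 7 days before isolation. The group is labelled P6, while the protocol places the collection on postnatal day 7, and the group labelled E12 was collected at E12.5 by the protocol. The gene that drives the recombinase is not given in the labels used here, and they do not say whether replicate libraries came from separate mice, so the spread between libraries may be technical.

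Lung capillaries form the thinnest part of the barrier across which blood takes up oxygen. Their endothelium consists of general capillary cells, which act as progenitors and regulate vascular tone, and of aerocytes, large flat cells specialised for gas exchange. In the mouse the first week after birth is when the saccular lung begins to divide into alveoli and its capillary network is remodelled. Open chromatin away from gene starts often marks enhancers, which control genes in a cell-type-specific way. An ATAC-seq peak reports access of a transposase to DNA, not the activity of an element.

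Most members lay far from gene starts, and no genome sequence was used here, so sequences are shown only for the small set that overlapped a promoter window. RefSeq (GRCm38.p6) promoter windows run from 250 bases before to 50 after a start. Of 32851 such windows, 21 overlapped 20 members and belonged to 20 genes, of which 6 are protein-coding (Cldn2, Nox1, Proca1, Gm12185, Gsg1 and Prkar1a). The 250 bases before the start are printed 5′ to 3′ for both protein-coding promoters with the strongest members, Cldn2 and Nox1, and for the non-coding genes Gm34300 and Gm36013, whose windows hold the letters AGATAA. Capitals mark matches on either strand in the printed bases, also where these lie outside the member. The member at Gm36013 ended at base 120192436, before the marked TTGGCA and the last AGATAA. That at Cldn2 ended at base 139800749, inside the marked CAGCTG. The letters searched for GATA factors were AGATAA, those for SOX factors ACAATGG and those for KLF factors CCACACCC. E-box proteins were searched by the letters CAGCTG, TEAD factors by the letters ACATTCC, RUNX factors by the letters TGTGGTT and NFI factors by the letters TTGGCA, and no printed match overlaps another.
Cldn2 (chrX:139800558-139800807, plus strand): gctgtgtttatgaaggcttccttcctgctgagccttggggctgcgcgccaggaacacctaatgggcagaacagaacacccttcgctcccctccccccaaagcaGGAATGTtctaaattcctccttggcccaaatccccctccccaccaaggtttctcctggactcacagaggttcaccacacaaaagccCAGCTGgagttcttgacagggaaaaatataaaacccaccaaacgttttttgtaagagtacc
Nox1 (chrX:134111855-134112104, minus strand): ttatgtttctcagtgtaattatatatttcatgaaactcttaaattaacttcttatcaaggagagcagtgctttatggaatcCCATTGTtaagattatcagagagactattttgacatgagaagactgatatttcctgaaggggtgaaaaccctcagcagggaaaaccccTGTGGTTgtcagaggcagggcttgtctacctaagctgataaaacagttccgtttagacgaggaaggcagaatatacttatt
Gm34300 (chr19:60387028-60387277, minus strand): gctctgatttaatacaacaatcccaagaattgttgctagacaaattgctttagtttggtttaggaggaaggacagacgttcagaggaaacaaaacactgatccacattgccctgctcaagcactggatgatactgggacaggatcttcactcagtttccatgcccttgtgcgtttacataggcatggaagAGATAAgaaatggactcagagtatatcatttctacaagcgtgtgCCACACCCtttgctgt
Gm36013 (chr4:120192227-120192476, plus strand): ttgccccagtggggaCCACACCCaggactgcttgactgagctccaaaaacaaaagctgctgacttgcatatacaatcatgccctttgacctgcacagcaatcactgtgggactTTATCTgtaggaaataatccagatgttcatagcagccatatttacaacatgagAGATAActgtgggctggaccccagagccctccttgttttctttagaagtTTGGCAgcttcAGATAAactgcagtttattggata

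AGATAA stood in 10 of the 21 windows (47.6%), which belong to 9 genes since 2 overlapping windows of Gm34300 both count, against 11.2% of all 32851 windows of the same length. Gm34300 and Gm36013 were picked for print because they hold these letters. ACAATGG stood in 14.3% of the member windows against 3.66% of all, and CCACACCC in 14.3% against 3.56%, each in 3 windows of 2 genes. The letters AGGNGGC, searched for CTCF, stood in 2 of the 21 windows (9.52%) against 29.4% of all. CAGCTG stood in 23.8% against 16.3%, TTCAAAG (TCF factors) in 14.3% against 5.14% and AGGAAGT (ETS factors) in 14.3% against 9.35%. ACATTCC stood in 9.52% against 3.85% and TGANTCA (AP-1 factors) in 9.52% against 7.81%. TTGGCA was lower, with 9.52% against 14.1%, as was TGTGGTT, with 4.76% against 5.27%. TGTTTAC (FOX factors), CACTTGA (NKX2 factors), AGGTGTGA (TBX factors), ACCGGAAGT (ETS factors) and CTAAAAATA (MEF2 factors) stood in none of the 21. Only 3.65%, 3.06%, 1.28%, 1.10% and 0.517% of all windows hold them, so nothing is read from these counts of 0. The member windows were poorer in G and C, with a median of 45.2% against 52.4%, and the part of base composition in these shares was not tested. Only 6 of the 20 member genes are protein-coding, and the windows were not matched by gene type. These are matches of letters, not binding sites.

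Cldn2 encodes a tight junction protein that forms a pore for cations. Its member, chrX:139800446-139800749, had a fold of 4.59 in P6 lung library 1 and 5.37 in library 2, where fold is the tag pileup of a peak divided by the local background of the same library, as the authors' peak caller gave it. Nox1 encodes the catalytic subunit of an NADPH oxidase that makes superoxide, and its member covered the whole window with folds of 4.07 and 3.47. Neither member had a peak in an adult lung or E12 endothelial list. The member at Gm34300 had folds of 3.37 and 5.42 and that at Gm36013 3.77 and 4.37.

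The P6 lung lists held 65908 and 60630 peaks from 25.6 and 24.9 M tags, and 77.3% of the regions in either list were in both. The 12 P6 lists of other organs held 27160 to 92863 peaks and the 3 P6 lung inputs 91318 to 112753. All 16 genes of the general endothelial list had a peak within 5 kb in both P6 lung endothelial lists. All 16 had one in each lung input too, so this count does not set endothelial nuclei apart from whole tissue. Of 16 lung epithelial genes 10 and 9 had one, against 16 in each lung input, and of 12 genes of lung mesenchyme 8 in each, against 12, 12 and 11. Of 10 genes of pericytes and smooth muscle 9 and 7 had one, against 10 in each input. Of 12 immune genes 5 in each had one, against 7, 7 and 8, and of 5 mesothelial genes 1 in each, against 4, 3 and 4. Lymphatic genes (5 of 8) and red cell precursor genes (3 of 6) had the same count in every P6 lung endothelial and input list. Peaks near genes of other lung cells were therefore present in the endothelial lists, and their part in the results was not tested. The aligned files behind the lung endothelial and P6 lung input lists carry a naming pattern that no other organ's list has, so organ and read processing cannot be told apart.

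The members were weak next to the other regions of lung endothelium. The fold was a median 3.52 in library 1 (range 1.79 to 7.07) and 3.50 in library 2 (1.80 to 6.35). The 52521 other regions in both lists had medians of 4.56 and 4.50 and reached 18.1 and 18.8. Median width was 329 bases against 758. Median -log10 q was 4.09 and 3.80 against 9.75 and 8.59. The peak calls that chose the members also set these values, so they are given as a description.

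Just inside the rule lay members with a low q score in at least 1 list. A member inside Elmo1, chr13:20428330-20428841, had -log10 q of 1.08 and 2.62, and a member inside Tek, chr4:94863248-94863652, had 1.16 and 2.18. Just outside lay 1234 regions kept out by a single peak in 1 list. In 336, 220 and 176 of them that peak was in lung input 1, 2 and 3, and the remaining blocking peaks were in endothelial lists of other organs, up to 104 in heart library 1. A region near Cdh11, chr8:102556758-102557132, had folds of 3.43 and 3.20 in the P6 lung lists and was kept out by a peak in lung input 2 with a fold of 2.24 and a -log10 q of 1.04. A further peak of another organ's P6 endothelium lay within 1 kb of 344 members (24.4%), without overlapping them. A P6 lung input peak lay as near to 246 (17.4%), also without overlap. No such share was counted for other regions, so nothing is read from these counts.

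The rule on inputs set the size of the group. Of the 53932 regions in both P6 lung lists, 90.9% overlapped a lung input peak. Without that rule 4537 regions were specific to lung among the P6 endothelial lists, and it removed 3126 of them. Whole-tissue nuclei include endothelial nuclei, so a region of lung endothelium that was also called in the input is not a member.

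The 15 members with the highest mean P6 fold ranged from 5.17 to 6.16. The strongest, chr1:58701213-58701587, lay between genes 5.21 kb from Flacc1, with folds of 7.07 and 5.24. A member 129 kb from Grin2b, which encodes an NMDA receptor subunit, had folds of 6.58 and 5.08. The members nearest to Zfp318 (5.65 and 6.00), Insig2, which holds back the activation of sterol-regulating transcription factors (5.18 and 6.35), and Phlpp1, a phosphatase of Akt (5.39 and 6.12), followed. The remaining strongest members were nearest to Nbr1, Klf14, Msi2, Med13l, Syne2, Crebrf, Ipo11, Rgr, Egfl6 and Gstm1. Nearest is a statement of position, and no target gene was measured.

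Among these 15, 4 had a peak in adult lung endothelium, those near Insig2 (adult fold 4.45), Phlpp1 (4.97), Klf14 (3.04) and Med13l (3.76 and 3.12). The member near Msi2, an RNA-binding protein, had a peak in 9 of the 11 E12 endothelial lists, and the member inside Nbr1, an autophagy receptor, in 5. The members near Flacc1, Grin2b, Ipo11, Rgr, Egfl6 and Gstm1 had none in any E12 or adult endothelial list.

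Few members were found in adult lung endothelium. Adult lung library 1 had a peak in 7.37% of members and library 2 in 1.56%, and 117 members (8.29%) had a peak in either. Of all merged regions 15.5% had one, and of the other regions in both P6 lung lists 53.3%. Both of these sets hold regions that other organs or the lung inputs shared at P6, which the rule kept out of the members, so gaps between members and these sets, here and for other adult and E12 lists, are in part fixed by the rule and are given as a description. A peak in both adult libraries was present in 9 members (0.638%), against 8.78% of all merged regions and 32.5% of the other lung regions. The adult lung libraries differed from each other, with 95 members in library 1 alone and 13 in library 2 alone. Library 2 had the shortest of all 66 lists, 19464 peaks from 45.4 M tags, and library 1 had 30974 from 24.9 M.

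The share differed in other settings. With each list cut to the length of the shortest of its age and kind, 22.1% of 1203 members had an adult lung peak, against 75.0% of the other lung regions. Without the rule on inputs the share was 17.2% of 4537, against 55.4% of the other lung regions, and without adult library 1 it was 1.56% against 33.9% of the other lung regions. The share stayed under that of the other lung regions in each of these settings, all of which keep the rule on other organs.

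Peaks of adult endothelium from other organs were also counted, although the rule, which asked for P6 lung peaks and for none in other P6 organs, favours the lung in this comparison. Each of the 10 adult endothelial libraries of other organs had a peak in 0.744 ± 0.333% of members (SD, n = 10, range 0.283 to 1.35%). The share in adult lung library 2 was just above the top of that range, and that in library 1 was well above it. Of all merged regions, adult lung libraries 1 and 2 had a peak in 14.9% and 9.36%, and the 10 other libraries in 18.2 ± 3.29% (SD). All 10 together reached 63 members (4.46%), against 47.0% of all merged regions, many of which were regions through a P6 peak of another organ. An adult lung peak with none in the other adult organs was present in 96 members (6.80%), against 1.46% of all merged regions and 4.04% of the other lung regions. Nothing is read from these gaps, since the rule bears on them. Of the 117 members with an adult lung peak, 51 also had a peak in adult lung input 2 and 1 in adult lung input 1. Input 2 had a peak in 29.5% of all merged regions and 69.1% of the other lung regions, and input 1 in 14.3% and 41.4%. These sets were not limited to regions with an adult lung peak.

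**Figure D1:**
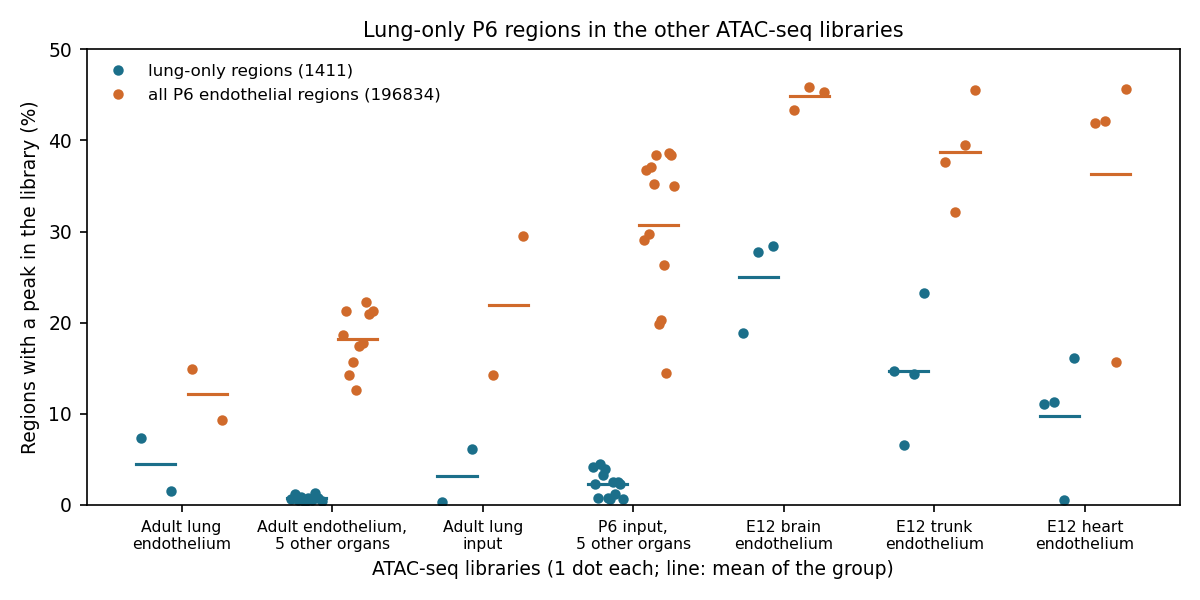
Share of regions (%) with a peak in each ATAC-seq library, for the 1411 lung-only regions and for all 196834 merged P6 endothelial regions, with 1 dot per library and a line at the group mean. Lung-only regions sit below all regions in every group plotted, near 0 in adult endothelium of other organs (0.283 to 1.35%), and highest in E12 brain (18.9 to 28.4%).

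Exactly 8 members (0.567%) had a peak in both adult lung libraries and in none of the 10 other adult endothelial lists, against 0.298% of all merged regions and 1.07% of the other lung regions. With lists of equal length 79 of 1203 members (6.57%) did, and without the rule on inputs 159 of 4537 (3.50%). Other regions were not counted in these settings, so these shares show only that the result depends on the setting. The 8 lay at Vav2, Dst, Olfm1, Med13l, Plscr2, Tmcc3, Ccl22 and Casz1. The member inside Vav2 spanned 717 bases at chr2:27421233-27421949, with folds of 3.91 and 3.84 at P6 and 4.48 and 2.93 in the adult. The member inside Dst, which encodes a linker of the cytoskeleton, had 4.11 and 3.28 at P6 and 3.91 and 3.49 in the adult.

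A member 50.2 kb from Olfm1, chr2:28142602-28142940, had folds of 5.21 and 4.19 at P6 and 3.99 and 3.0 in the adult. A member inside Casz1, a zinc finger transcription factor, had 2.72 and 2.68 at P6 and 3.42 and 2.15 in the adult. A member 12.2 kb from Ccl22, a chemokine that attracts T cells, had 4.09 and 3.30, and 3.25 and 2.95. The ninth member with both adult peaks lay 0.917 kb from the start of Gm12185 and had a peak in 1 adult list of another organ. Of the 9, all but the member in Dst also had a peak in adult lung input 2. That input had one in 29.5% of all merged regions and 69.1% of the other lung regions, so little is read from 9 members.

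The same rule was applied to each organ. It gave 135 regions for brain, 3205 for heart, 681 for kidney, 2531 for liver and 622 for retina, found in 2 or 3 P6 libraries each. Of these, 53.3% of the brain, 18.8% of the heart, 29.7% of the kidney, 58.8% of the liver and 28.6% of the retina regions had a peak in either adult endothelial list of their own organ. Lung, with 8.29%, was the lowest of the 6. Over all regions in each P6 list of the organ, lung (52.2%) and heart (50.2%) were the lowest and close to each other. Both adult lung lists and both adult heart lists (29353 and 32471 peaks) were shorter than those of brain, liver and retina, and the kidney lists held 26085 and 36489. The difference between organs was not tested.

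**Figure D2:**
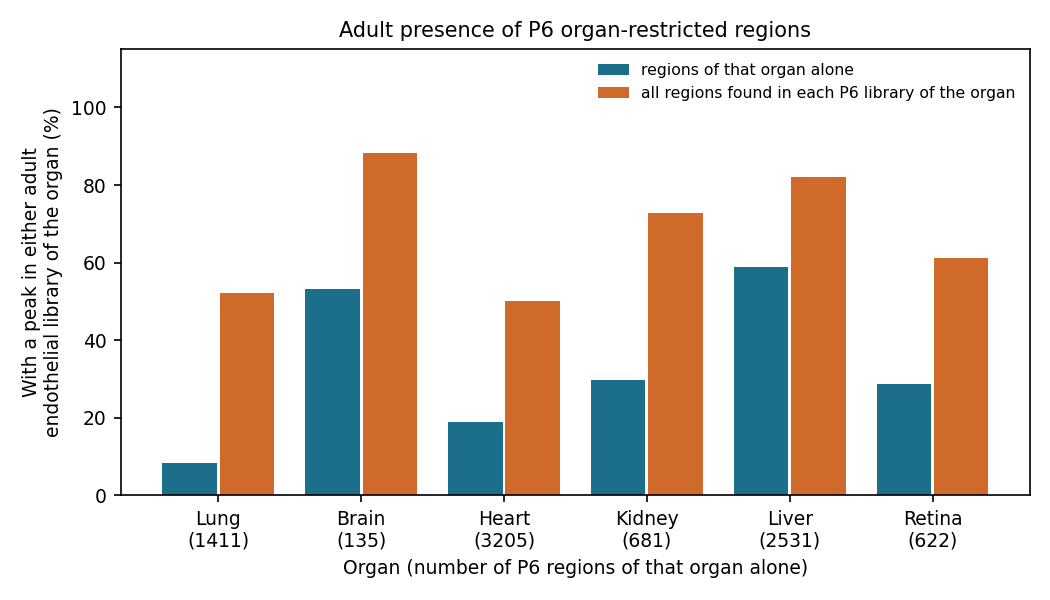
Share (%) of P6 regions with a peak in either adult endothelial library of the same organ, for regions found by the same rule in that organ alone (number in brackets) and for all regions in each of its P6 libraries. The bars for regions of that organ alone run from 8.29% in lung to 58.8% in liver, and in each organ they are lower than the bars for all its regions.

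The adult share was also counted by bands of P6 fold. The members were split at the quartiles of their mean P6 fold (3.15, 3.54 and 3.98), and the other lung regions with a fold inside the members' range by the same limits. From the lowest to the highest band, 8.50%, 5.68%, 8.50% and 10.5% of the members had an adult lung peak. Of the other lung regions 28.7%, 29.9%, 34.2% and 58.0% had one. The members had the lower share in all 4 bands, on counts of 20 to 37 members with an adult peak per band. Fold is not matched in the top band, which is open to 6.16 and holds 25381 other regions, while 95% of all members had a mean fold under 4.63. Width was not matched in any band.

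**Figure D3:**
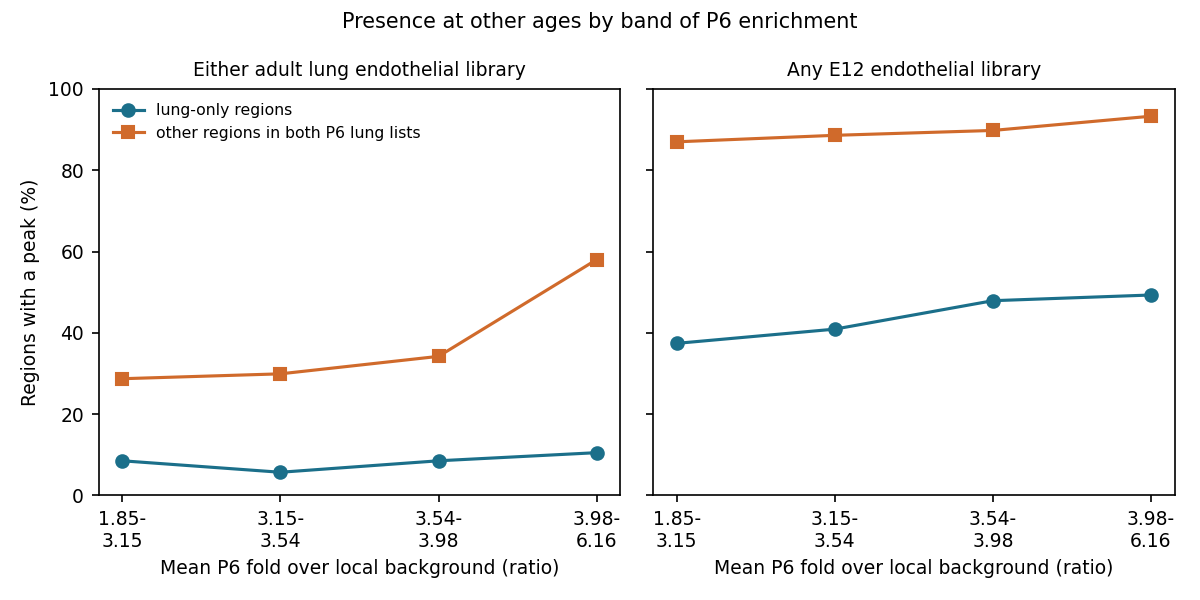
Share (%) of regions with a peak in either adult lung endothelial library (left) or in any E12 endothelial library (right), by band of mean P6 fold over local background. Lung-only regions lie below the other regions of both P6 lung lists in all 4 bands, at 5.68 to 10.5% against 28.7 to 58.0% for the adult and 37.4 to 49.3% against 87.0 to 93.3% for E12.

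Peaks in embryonic endothelium were more frequent. Any of the 11 E12 endothelial lists had a peak in 619 members (43.9%), against 64.2% of all merged regions and 92.4% of the other lung regions. Regions chosen by the same rule in other organs had one in 58.5% (brain), 65.9% (heart), 46.7% (kidney), 62.9% (liver) and 38.7% (retina). The E12 lists were longer than the adult ones, with 39096 to 120456 peaks against 19464 to 47334, and E12 lung was not among them. By fold band the members' share was 37.4%, 40.9%, 47.9% and 49.3%. Of all members, 585 (41.5%) had a peak at E12 and none in adult lung, 83 (5.88%) in adult lung and none at E12, 34 (2.41%) at both and 709 (50.2%) at neither. For the other lung regions these shares were 41.0%, 2.02%, 51.3% and 5.61%.

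Among the embryonic tissues, brain endothelium held the most members. The 3 E12 brain libraries had a peak in 18.9%, 27.7% and 28.4% of members. The 4 E12 heart libraries had one in 11.1%, 11.3%, 0.567% and 16.1%, and the 4 E12 trunk libraries in 14.7%, 6.59%, 14.4% and 23.3%. Brain and heart did not overlap, whereas trunk library 4 lay inside the brain range. Heart library 3 had 39096 peaks and 10.1 M tags, while the other heart lists (101219 to 120456 peaks) were about as long as the brain lists (101322 to 111142).

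Of all merged regions the brain libraries held 43.3 to 45.9%, the trunk libraries 32.1 to 45.5%, heart libraries 1, 2 and 4 held 41.9 to 45.6% and heart library 3 15.7%. By group mean the order of the tissues was the same for members (25.0, 14.7 and 9.76% in brain, trunk and heart) and for all merged regions (44.8, 38.7 and 36.3%). Any E12 brain list had a peak in 482 members (34.2%, against 52.0% of all merged regions), any heart list in 282 (20.0%, against 50.4%) and any trunk list in 371 (26.3%, against 48.7%). All 3 brain lists had one in 218 members (15.5%, against 37.6%). At E12, 126 members (8.93%, against 5.41% of all merged regions) were in brain alone, 79 (5.60%, against 7.89%) in heart alone, 43 (3.05%, against 1.79%) in trunk alone and 145 (10.3%, against 37.9%) in all 3 tissues. The 3 brain lists of P6, by the rule, held none of them.

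No other ATAC-seq list of the 66 had a peak in 538 members (38.1%), against 0.842% of all merged regions. The rule itself emptied 15 of those lists for the members, so nothing is read from that gap. Inputs of other organs at P6 had a peak in 2.27 ± 1.40% of members (SD, n = 13), against 30.7 ± 8.19% of all merged regions.

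Few members lay at promoters. Only 24 (1.70%) were within 1 kb of the start of a protein-coding gene, against 7.13% of all merged regions and 19.2% of the other lung regions. Both sets hold regions that other organs or the lung inputs shared at P6, which the rule kept out. Gaps to them in this paragraph are therefore in part fixed by the rule and are a description. Inside genes lay 721 (51.1%, against 50.8% of all merged regions) and between genes 666 (47.2%, against 42.1%). The median distance to the nearest start was 52.0 kb over 1343 members, against 44.8 kb over all regions and 27.9 kb over the other lung regions, and 34.6% lay over 100 kb away, against 31.2% of all regions. Starts were at hand for 79.9% of protein-coding genes and for none on chromosome 18, where the other 68 members lie. Within 1 kb of either end of any protein-coding gene lay 4.11%, a setting chosen after the data were seen. The share of lung regions that were members ran from 2.02% on chromosome 16 to 3.63% on chromosome 6 among the autosomes, and was 2.90% on X.

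The members were mostly scattered. Joined where gaps were at most 50 kb, they formed 1297 groups, of which 1202 held a single member, 80 held 2 and 15 held 3 or more. The nearest genes numbered 1200, which is 5.48% of all protein-coding genes, and 1035 of them had 1 member. Antxr2, Foxp1 and Pcsk5 had 5 members each. Kcnh1, Etl4, Tbx3, Sox11, Dnah12 and Ldlrad4 had 4, and Nckap5 was the first of the genes with 3. These genes were picked for their many members, which raises the share of their lung regions that are members, so these shares are a description beside the 2.62% over all lung regions.

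Antxr2 encodes a receptor for extracellular matrix, through which anthrax toxin also enters cells. Its 5 members ran from chr5:97792349-97792909 to chr5:98022999-98023297, 4 beyond the gene and 1 inside it, with mean folds of 2.74 to 4.13. None had a peak in adult lung or in any E12 endothelial list. They made up 20.8% of the 24 lung regions nearest to this gene. A further region inside Antxr2, chr5:97886437-97886766, was kept out by a single peak in lung input 3 with a fold of 2.55.

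Foxp1, a forkhead transcription factor of lung and endothelium, had 3 members inside the gene and 2 beyond it, with mean folds of 2.01 to 3.62. They made up 12.2% of its 41 lung regions. The member at chr6:99168005-99168290 had a peak in 6 E12 endothelial lists, 2 of brain and 4 of trunk. Pcsk5, a convertase that cleaves precursor proteins, had 5 members at 46.8 to 251 kb from the gene with mean folds of 3.01 to 4.43, 25.0% of its 20 lung regions. All 4 members of Dnah12, a dynein heavy chain of motile cilia, lay inside the gene and made up 66.7% of its 6 lung regions.

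Tbx3, a T-box transcription factor of lung and limb development, had 4 members, and Med13l, a subunit of the Mediator kinase module, had 3, all in the gap of 905 kb between these genes on chromosome 5. There they made up 7 of 48 lung regions (14.6%). This stretch was picked for its many members, so its share is a description and is not set against other regions. The 4 nearest to Tbx3 lay 88.9 to 341 kb from it, with mean folds of 3.51, 4.38, 3.47 and 2.98 in order of distance. The member at chr5:119390415-119390687 had folds of 5.80 and 2.96, which differ the most among the 7. Of the 3 on the Med13l side, chr5:119082817-119083341 (5.29 and 5.36) had a peak in both adult lung lists and chr5:119003873-119004207 (5.21 and 4.22) in 1. The other 5 had none in adult lung, and 3 of the 7 had a peak at E12.

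**Figure D4:**
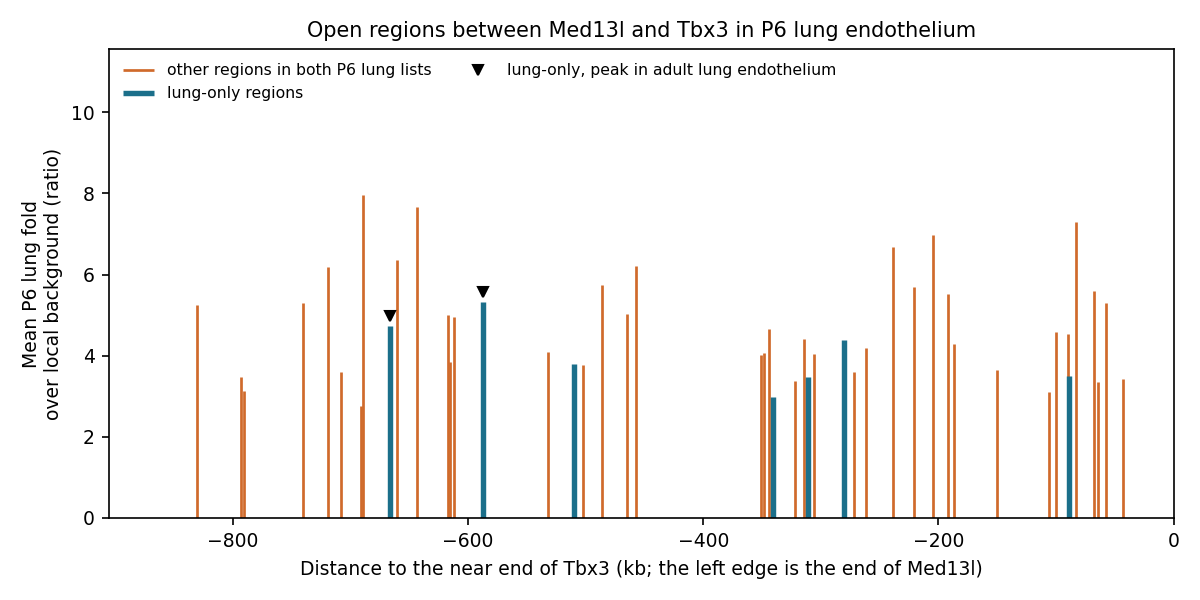
Mean P6 fold over local background of each region in both P6 lung endothelial lists in the 905 kb between Med13l and Tbx3, by distance to Tbx3 (kb), with lung-only regions in thick lines and triangles on those with an adult lung peak. The 7 lung-only regions are spread over the gap, and the 2 with an adult lung peak are the strongest of them and lie farthest from Tbx3.

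Genes known from lung capillaries often had a member nearby. Within 50 kb of a member lay 15 of 31 genes on 3 lists of lung endothelium (48.4%), against 1926 of all 21887 protein-coding genes (8.80%). Of the 31 genes 8 had one of the 1411 members inside the gene, against 3.07% of all genes. With lists of equal length, where the members differ, 9 of the 31 had a member within 50 kb, against 7.80% of all genes. The 15 were 7 of 14 genes tied to lung endothelium, 5 of 7 genes of general capillary cells and 3 of 10 aerocyte genes. All 31 genes had a region of both P6 lung lists within that distance, against 18102 of all genes. The number of lung regions near each gene was not matched, and genes with more of them can have a member more often. The rule chose peaks of lung endothelium, so it bears on closeness to such genes, and these shares are a description. Of the 352 lung regions near the 31 genes 23 were members (6.53%), against 2.39% of the 46771 lung regions near any protein-coding gene. Shares above 2.39% were also present near lists not tied to lung capillaries, with 5.88% for angiopoietin and Tie, 5.71% for lymphatic, 4.29% for lung epithelial, 3.42% for Notch, 3.33% for brain endothelial, and 2.65% each for vasoactive and endothelial transcription factor genes, and near aerocyte genes the share was 4.46%. The lists were chosen with earlier results of these data known, and their genes were longer, with medians of 22.2, 144 and 19.8 kb against 17.2 kb.

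**Figure D5:**
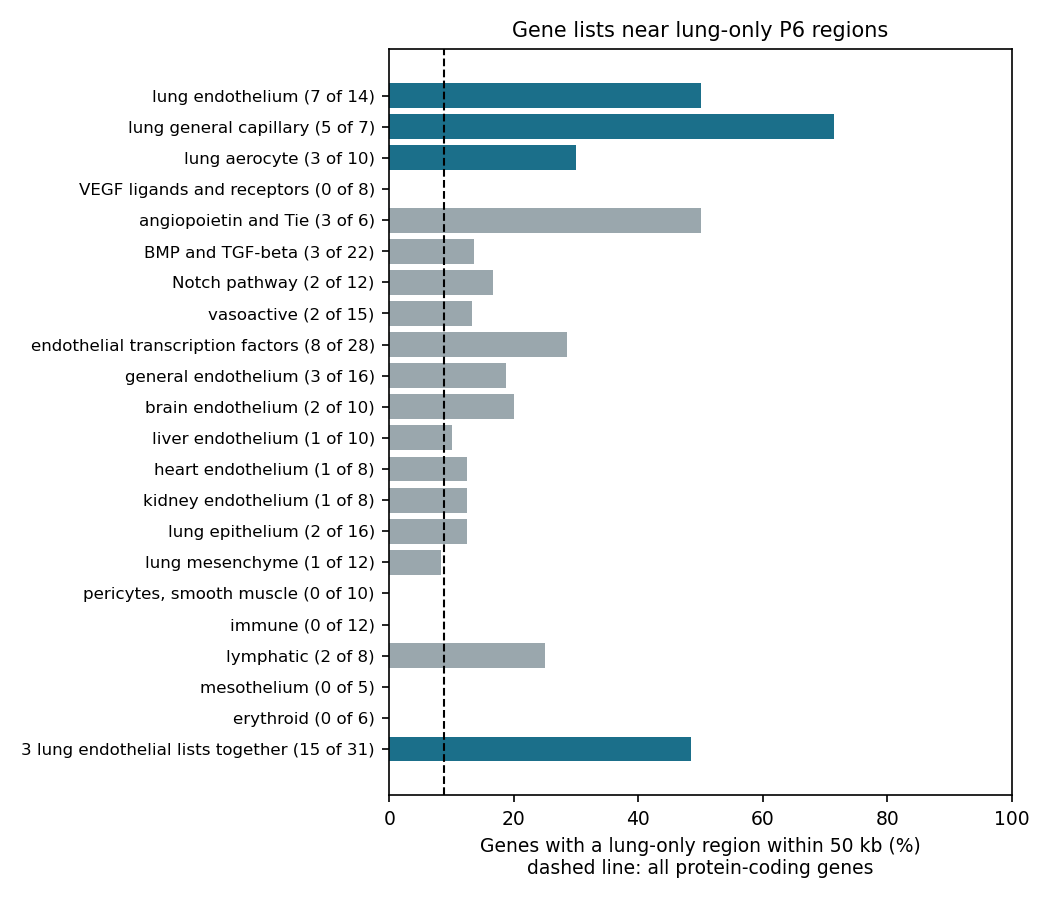
Share (%) of the genes of each list with a lung-only region within 50 kb of the gene, with counts in brackets. The dashed line is the share of all protein-coding genes (8.80%). The number of lung regions near each gene is not matched between lists and all genes. The lung endothelial lists together reach 48.4%, and 5 lists, those of VEGF, mural, immune, mesothelial and red cell genes, have none, from which nothing is read as they have 19 to 96 lung regions each.

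The BMP pathway, in which receptor mutations cause pulmonary arterial hypertension or malformed vessels, was covered by a list of its own. Bmpr2, the type II receptor, had a member 16.8 kb away, chr1:59747120-59747518, with folds of 3.23 and 3.65. Acvrl1, the endothelial type I receptor ALK1, had a member inside the gene, chr15:101135502-101135743, with folds of 2.00 and 2.37 and a pileup of 48.2 and 46.1 tags. Its other 2 members, 46.0 and 47.5 kb away, were nearer to Fignl2 and Acvr1b. Bmp6, a ligand, had a member 5.74 kb away with folds of 3.55 and 3.28. Over the whole BMP and TGF-beta list these 3 of 22 genes had a member (13.6%, against 8.80% of all genes), and 1.95% of the 257 lung regions near the list were members, against 2.39% near all genes. None of these members had a peak in adult lung or E12 endothelium. Smad3, an effector of TGF-beta that is not on the list and was picked after its values were seen, had a member 5.18 kb away with folds of 3.40 and 3.50.

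Tmem100, a membrane protein induced by BMP signalling in endothelium, had members 3.10 and 43.2 kb away. The nearer, chr11:90039613-90039985, had folds of 1.79 and 2.01, the lowest mean fold among the list members (1.90). The farther, chr11:90079712-90080002, had 3.43 and 3.50 and a peak in all 3 E12 brain lists. Foxf1, a forkhead factor whose loss causes misalignment of pulmonary veins, had a member 8.01 kb away, chr8:121076062-121076372, with folds of 2.53 and 2.62 and 1 of 2.94 in adult lung library 1. That member also counts for Foxc2, 39.8 kb from it.

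The next genes act on vascular tone or mark lung endothelium. Ace, the angiotensin-converting enzyme held on lung capillaries, had a member inside the gene (2.32 and 2.39), which had a peak in 5 E12 lists. It had 2 further members, 5.35 and 31.8 kb away, which were nearer to Ace3 (3.58 and 4.01) and Kcnh6 (3.28 and 3.08). Calcrl, a receptor for adrenomedullin, had a member 7.53 kb away that spanned 965 bases, with folds of 2.88 and 3.07. Scn7a, a sodium channel gene used as a lung endothelial marker, had a member inside the gene with folds of 2.43 and 2.89 at P6 and 3.14 in adult library 1. Of the vasoactive list of 15 genes, Ace and Calcrl alone had a member (13.3%, against 8.80% of all genes), and 2.65% of the lung regions near it were members, against 2.39%.

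Of the 6 members within 50 kb of general capillary genes, 4 lay inside the gene, those of Kit, Sema3c and Cadm1, while the one for Bmp6 lay 5.74 kb away. Of all members 51.1% lay inside genes. Kit, a receptor tyrosine kinase, had 1 of 678 bases, chr5:75653098-75653775, with folds of 3.65 and 3.35, and a peak in 9 of 11 E12 lists. Sema3c, a secreted guidance factor, had 2, with folds of 2.66 and 2.79, and 4.04 and 3.73. Cadm1, an adhesion molecule, had the strongest member of all lists, chr9:47583837-47584221, with folds of 4.48 and 5.02, a fold of 2.97 in adult library 1 and a peak in 2 E12 brain lists. The member counted for Itga1, an integrin subunit, lay 47.9 kb away inside its neighbour Itga2.

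Among aerocyte genes, Nckap5 had 2 members inside the gene, with folds of 3.46 and 3.47, and 4.11 and 3.67, and another 141 kb away. Kitl, the ligand of Kit, had 1 inside the gene (2.95 and 2.52). Rprml had 2, at 3.39 and 14.4 kb, with folds of 3.79 and 3.72, and 3.86 and 3.92. The farther was nearer to Gosr2. Car4, Ednrb, Apln, Fibin, Tbx2, Kdr and Emp2 had none within 50 kb.

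Angiopoietin and VEGF genes steer the growth and stability of vessels. Of the angiopoietin and Tie list 3 of 6 genes had a member (50.0%, against 8.80% of all genes), and 5.88% of the 68 lung regions near it were members, against 2.39%. These genes were Tek, the receptor Tie2, with 2 inside the gene (4.60 and 3.31, and 2.54 and 3.01), Ptprb, the phosphatase that restrains it, with 1 inside the gene (2.99 and 3.08), and Tie1 with 1 at 46.0 kb, nearer to Elovl1. The first Tek member had a peak in 2 adult lists of other organs. None of 8 VEGF ligands and receptors had a member, although all 8 lay within 50 kb of regions in both P6 lung lists, 96 in all. At the 2.39% near all protein-coding genes few of 96 regions would be members, so nothing is read from that count of 0. Of the Notch list 2 of 12 had one (16.7%, against 8.80% of all genes), the ligand Jag1 (4.78 and 3.80, 32.4 kb away) and the target Hey1 with 3. Those 2.47 and 25.8 kb from Hey1 were nearer to LOC115489673. Of the 117 lung regions near the list 3.42% were members, against 2.39%.

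Among 28 endothelial transcription factors 8 had a member, Foxp1, Foxf1, Foxc2, Fli1, Elk3, Epas1, Klf4 and Sox7. Epas1, the hypoxia-inducible factor of endothelium, had a member inside the gene with folds of 2.73 and 2.41, Fli1, an ETS factor, 1 with 3.54 and 2.84, and Klf4, a factor induced by blood flow, 1 at 1.06 kb with 2.16 and 2.35. The members that counted for Elk3 and Sox7 had peaks in 3 and 2 adult endothelial lists of other organs. Of the 340 lung regions near this list 2.65% were members, close to the 2.39% near all protein-coding genes. The general endothelial list (3 of 16 genes) was at 1.69%.

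On the lists of endothelium of other organs, a member lay near Ocln and Spock2 of 10 brain genes (20.0%), Stab2 of 10 liver genes (10.0%), Cd36 of 8 heart genes (12.5%) and Plvap of 8 kidney genes (12.5%). Of the lists of other lung cells, 2 of 16 epithelial genes (Hopx, with a member inside the gene at 3.86 and 4.06, and Pdpn) and 1 of 12 mesenchymal genes (Pdgfra) had a member, against 8.80% of all genes. Pdpn and Lyve1 of 8 lymphatic genes had one. None of 10 mural, 12 immune, 5 mesothelial and 6 red cell precursor genes did. Only 48, 43, 20 and 19 lung regions lay near these lists, of which few would be members at 2.39%, so nothing is read from these counts of 0. Over all lists, 37 genes were within 50 kb of 50 members, with mean folds of 1.90 to 4.75 and a median of 3.23. Of these 50 members, 4 had a peak in adult lung endothelium and 22 in E12 endothelium, close to the 8.29% and 43.9% of all members.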

How the data were processed

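ATAC-seq peak lists of 66 libraries were used; RNA libraries were not analysed here. The authors ran MACS2 2.1.2 on every library by itself, without a control, as the deposited file headers record (broad peaks, shift -100, extension 200 bases, 1 tag per position, q-value limits of 0.05 and 0.1). Each deposited peak carries a signal value, which is its tag pileup without scaling between libraries, and a fold, which is the ratio to local background. The authors' lists also hold a −log10 p-value and a −log10 q-value per peak. The build is mm10, and Bowtie2, SAMtools 1.13 and Picard are named, per the submitters' processing notes. A peak lay at an end of 55.9% and 54.7% of protein-coding genes in the P6 lung lists, against 12.2% and 10.9% after a move of 100 kb.

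Groups came from the sample titles. Peaks were merged and compared in Python 3.11.15 (numpy 2.4.6, pandas 2.3.3), with an overlap of at least 1 base, and the code was tested on simulated lists. Gene positions came from the RefSeq table of GRCm38.p6, and motif letters were searched on both strands. No test was run on members or between groups, since members were chosen by the peak calls. For a region, 2 lists against 10 cannot reach a p under 0.0152 in Fisher's exact test. A gap rule for outlying libraries, applied to the E12 heart and trunk groups, flagged none. The members and gene lists were chosen with earlier results of these data known. Genes were named by fixed rules: the 15 members with the highest mean P6 fold, those in both adult lung lists and no other adult endothelial list, the 10 genes nearest to the most members, every list gene with a member within 50 kb, the members and regions nearest to the limits of the rule, and the promoters with the strongest members. Of those promoters Cldn2 and Nox1 are printed as protein-coding genes, and Gm34300 and Gm36013 because they hold AGATAA, a choice made after that was seen, as was the naming of Smad3. Alternatives were stricter q scores, wider or reciprocal overlap, lists of equal length, other rules on inputs, autosomes, each library left out, and other distances.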

Additional observations from a re-analysis of the deposited data

How the results depend on the processing

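No paired analysis was possible because the results come from no test. Member counts were within 1.5 times of 1411 with stricter q scores, wider or reciprocal overlap, lists of equal length, autosomes or all P6 inputs, but reached 4537 without the rule on inputs. There 17.2% had an adult lung peak, 3.50% one in both adult lung lists and no other adult organ, and 1.08% lay at a start. With a -log10 q of at least 2 in every list the adult share was 6.90%. With lists of equal length it was 22.1%, the share in both adult lung lists alone was 6.57%, and 9 of 31 lung endothelial genes had a member within 50 kb (7.80% of all genes). The share in both adult lung lists alone was not counted for other regions in these settings. The share at a start was 0.638% within 500 bases, 10.1% within 5 kb, 3.33% with the starts of all genes and 4.11% at either gene end. Members inside the gene left 8 of the 31.

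With each library left out in turn, members numbered 1411 to 3057 (2370 without P6 lung library 1, 3057 without library 2), and the adult share was 1.56 to 8.52% (1.56% without adult lung library 1, 5.43% without P6 lung library 2). The share in all adult lung lists and no other adult organ was 0.294% (without P6 lung library 2) to 6.09%, being 1.28% and 6.09% with 1 adult lung list alone. The share at a start was 1.47 to 1.85%, and 15 to 18 of the 31 genes had a member. The count of 18 was reached without P6 lung library 1 and without P6 lung library 2, where members were more numerous. In both settings the share of all protein-coding genes with a member within 50 kb also rose above the 8.80% of the main setting. The range of 15 to 18 genes is therefore not set against one fixed background, and nothing is read from the rise to 18. The cause of these shifts was not tested. The alternative on sequence windows was not run, since no genome was used here. Adult lung list 2, the shortest, limits what can be called present in the adult.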
